A study of Homo sapiens with 6 samples.

Results

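The SLAM family receptors are surface proteins of blood cells, and the SAP adaptors are small proteins that carry their signals inwards. The 10 genes covered here were the receptors SLAMF1, CD48, LY9, CD244, CD84, SLAMF6, SLAMF7 and SLAMF8 and the adaptors SH2D1A, which encodes SAP, and SH2D1B, which encodes EAT-2. They were chosen by family name, with the measured difference between LY317615-treated and untreated arrays already known, and each gene was to be read from its brightest probe set over all 6 arrays. Each of the 9 genes that could be read had a single probe set with 1 gene name, so brightness decided nothing. These 9 genes are among 18417 genes of the arrays, and SLAMF8 was not analysed here. Because the choice was made with this contrast in view, the values of the 9 genes are a description, with no p-value, and support nothing by themselves.

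Most SLAM receptors bind another copy of themselves on a neighbouring cell, while CD244 binds CD48. Their tails carry tyrosine motifs that recruit SAP or EAT-2, which link them to kinases such as FYN or to phospholipase C gamma. Where the adaptors are absent, the same motifs can recruit inhibitory phosphatases. On B cells and plasma cells several of these receptors serve as markers and as antibody targets, and 7 of the receptor genes lie side by side on the long arm of chromosome 1.

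The cells were RL, a human B-cell lymphoma line in long-established use whose chromosomes carry the t(14;18) translocation. One group of 3 arrays came from RL cells given LY317615, also called enzastaurin, which was designed to block the beta form of protein kinase C, for 48 h at a dose that the labels write as 2.5 mM, a unit that could not be checked. The other group of 3 arrays came from untreated RL cells, whose titles also give 48 h and for which no vehicle is named. Total RNA was read on Affymetrix Gene 1.0 ST arrays, which give 1 intensity per probe set. Levels below are log2 intensities, and differences are LY317615 minus untreated on the log2 scale, with standard errors (SE) from a limma fit over all genes. Since probe sets differ in brightness for reasons other than RNA amount, levels are compared between arrays and not between genes.

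Arrays within a group were alike. Across genes, which do not count as replicates, log2 intensities had a correlation of 0.994 to 0.997 among the LY317615 arrays and of 0.997 among the untreated arrays, against 0.982 to 0.989 between groups. LY317615 replicate 3 stood apart, with a limma array weight of 0.376 where the rest had 1.04 to 1.51. The differences of the measured receptors are therefore also given without it. The submitters describe independent replicates without saying that each was its own culture. Errors and p-values therefore measure the spread among these 6 arrays alone, and it may be technical. Across all genes, 35.7% had a limma p under 0.05 after Benjamini-Hochberg adjustment, with 14.2% higher and 21.4% lower in LY317615 cells. With the array medians set equal the 2622 higher and 3946 lower genes became 1523 and 4861. The groups did not overlap in 49.8% of genes.

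Marker levels are given as a description, since brightness differs between probe sets and cannot rank cell types. The 5 measured B-cell markers had log2 intensities of 9.13 to 11.28 in LY317615 cells and 10.31 to 11.52 in untreated cells. Of these, 4 fell, CD22 the most. CD22, an inhibitory B-cell receptor, fell by 1.16 ± 0.10 (SE, limma adjusted p = 9.18e-05). MS4A1, which encodes CD20, fell by 0.81 ± 0.09 (adjusted p = 0.000224), and PAX5, a factor of B-cell identity, fell by 0.48 ± 0.07 (adjusted p = 0.000985). The 5 NK-cell markers had list means of 4.25 to 4.44 over the LY317615 arrays and 4.20 to 4.27 over the untreated arrays, and 0 passed with limma (0 also at an unadjusted p under 0.05). The 6 T-cell markers had list means of 5.11 to 5.37 against 5.02 to 5.10, with 2 higher and 1 lower. The 5 monocyte markers had list means of 4.49 to 4.65 against 4.21 to 4.27, with 3 higher and 0 lower. Of those higher, CD14 rose by 0.50 ± 0.10 (SE, limma adjusted p = 0.00398), with no overlap between the groups. CSF1R and CD163 were near the threshold (limma adjusted p = 0.0482 and 0.0447), and the groups overlapped for CSF1R. Over all genes 14.2% were higher and 21.4% lower, and nothing is read from counts over these short marker lists. The markers were not followed over the other processing settings. Array intensities have no zero, and without detection calls it is unknown which of these probe sets lay above background. The part of these shifts in the results below was not tested.

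Of the SLAM genes, 3 receptors were lower in LY317615 cells on every array, and the groups overlapped for the other 6 genes. SLAMF7 differed by -2.06 ± 0.16 (SE), SLAMF1 by -1.60 ± 0.14 and LY9 by -1.58 ± 0.09. The other 6 differences lay between -0.14 and 0.08. In the fit over all genes 3 of 9 members (33.3%) had an adjusted p under 0.05, against 35.7% of all genes, and 0 of the 9 were higher (in limma 0 also at an unadjusted p under 0.05). These 3 were also the members whose groups did not overlap, against 49.8% of all genes. The median difference of the 9 genes was -0.13, against 0.02 over all genes. This median was the value of SH2D1B, which lay at percentile 6.01 of mean intensity. The median ran from -0.205 to -0.045 as single arrays were left out, and nothing is read from it. These arrays measure bulk RNA, so fewer cells that express a gene and less RNA per cell cannot be told apart.

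**Figure D1:**
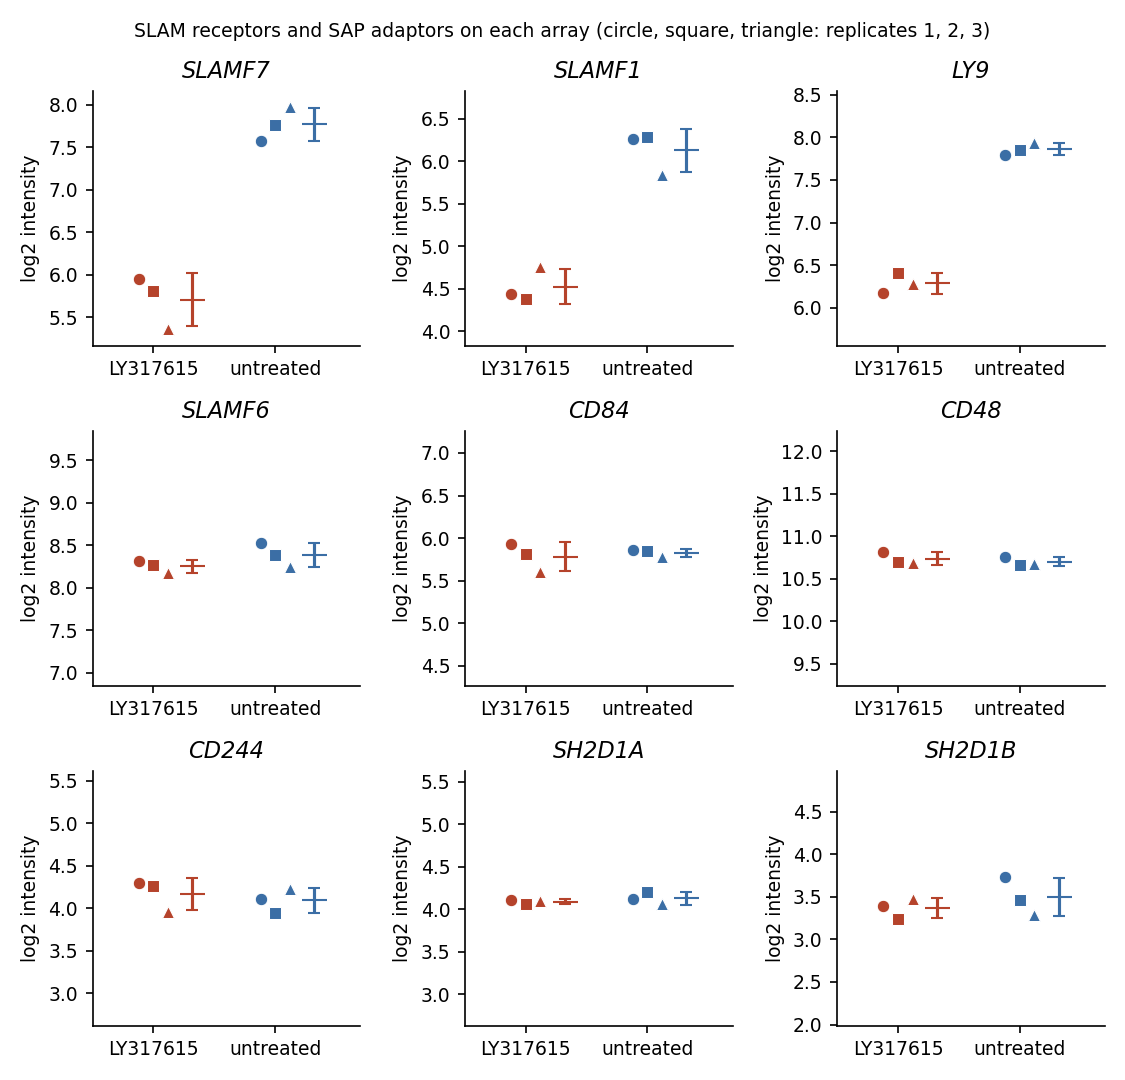
Log2 intensity of the 9 measured genes on each array, with LY317615 at the left of each panel and untreated cells at the right. Circles, squares and triangles are replicates 1, 2 and 3, horizontal marks with bars are the mean ± SD (n = 3), and every panel spans the same height. The groups are apart for SLAMF7, SLAMF1 and LY9 and overlap in the other 6 panels.

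SLAMF7, also called CRACC or CS1, is a self-binding receptor of NK cells and plasma cells and the target of the antibody elotuzumab. Its probe set (7906613) read 5.96, 5.81 and 5.37 on the LY317615 arrays, against 7.58, 7.76 and 7.97 on the untreated arrays. Every LY317615 array was below every untreated array, and LY317615 replicate 3 was the lowest. On the linear scale these are intensities of 62.0, 56.1 and 41.3 in LY317615 cells, against 191, 217 and 251 in untreated cells. The group means were 5.71 ± 0.31 in LY317615 cells and 7.77 ± 0.20 in untreated cells (SD, n = 3 each), a level 4.17-fold lower with LY317615. Ordered from the most negative difference, SLAMF7 held place 8 of 18417 genes. Without LY317615 replicate 3 the difference was -1.89.

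SLAMF1, also called CD150, is a self-binding receptor of activated lymphocytes and an entry receptor of measles virus. Its probe set (7921652) read 4.43, 4.38 and 4.76 in LY317615 cells, against 6.27, 6.28 and 5.84 in untreated cells. The groups did not overlap, and in both groups replicate 3 lay nearer to the opposite group than the other replicates did. The means were 4.53 ± 0.20 and 6.13 ± 0.25 (SD, n = 3 each) for LY317615 and untreated cells, a 3.04-fold lower measured intensity at place 23 from the most negative difference. SLAMF1 lay at percentile 33.2 of mean intensity over all genes, and without detection calls the share of background in its LY317615 readings, and so in that fold, is unknown. Without LY317615 replicate 3 the difference was -1.72.

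LY9, also called CD229, is another self-binding receptor of B and T cells with a long extracellular part. Its probe set (7906622) read 6.17, 6.41 and 6.28 in LY317615 cells, against 7.79, 7.86 and 7.94 in untreated cells. It had the tightest groups of the 3 lower receptors, at 6.29 ± 0.12 in LY317615 cells and 7.86 ± 0.07 in untreated cells (SD, n = 3 each). The level was 2.98-fold lower with LY317615, at place 28 from the most negative difference. Without LY317615 replicate 3 the difference was -1.57.

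The other measured receptors overlapped between the groups. SLAMF6, a self-binding receptor called NTB-A in human NK cells, read 8.31, 8.27 and 8.17 in LY317615 cells, against 8.53, 8.38 and 8.25 in untreated cells, a difference of -0.14 ± 0.09 (SE). CD84, a self-binding receptor of B cells and platelets, read 5.93, 5.81 and 5.60 against 5.86, 5.84 and 5.77, a difference of -0.05 ± 0.10. For both genes LY317615 replicate 3 was the lowest array. CD48 is held in the membrane by a lipid anchor, has no tail to bind SAP, and is the partner of CD244. It read 10.82, 10.70 and 10.69 in LY317615 cells, against 10.76, 10.67 and 10.67 in untreated cells, a difference of 0.04 ± 0.08. CD244, the 2B4 receptor best known from NK cells, read 4.30, 4.26 and 3.95 against 4.11, 3.94 and 4.23, a difference of 0.08 ± 0.11. Without LY317615 replicate 3 the differences were -0.10 for SLAMF6, 0.05 for CD84, 0.06 for CD48 and 0.19 for CD244. CD244 lay at percentile 14.4 of mean intensity over all genes, where a probe set may hold little signal above background.

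The groups also overlapped for both adaptors. SH2D1A encodes SAP, which is mutated in X-linked lymphoproliferative disease and is known mainly from T and NK cells. Its probe set (8169792) read 4.10, 4.05 and 4.10 in LY317615 cells, against 4.12, 4.20 and 4.06 in untreated cells, a difference of -0.04 ± 0.07 (SE). SH2D1B encodes EAT-2, the related adaptor of NK cells and antigen-presenting cells. It read 3.39, 3.24 and 3.48 in LY317615 cells, against 3.73, 3.47 and 3.29 in untreated cells, a difference of -0.13 ± 0.12. Both lay low in mean intensity, at percentiles 14.0 and 6.01 of all genes, so a difference in their RNA could be hidden by background.

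**Figure D2:**
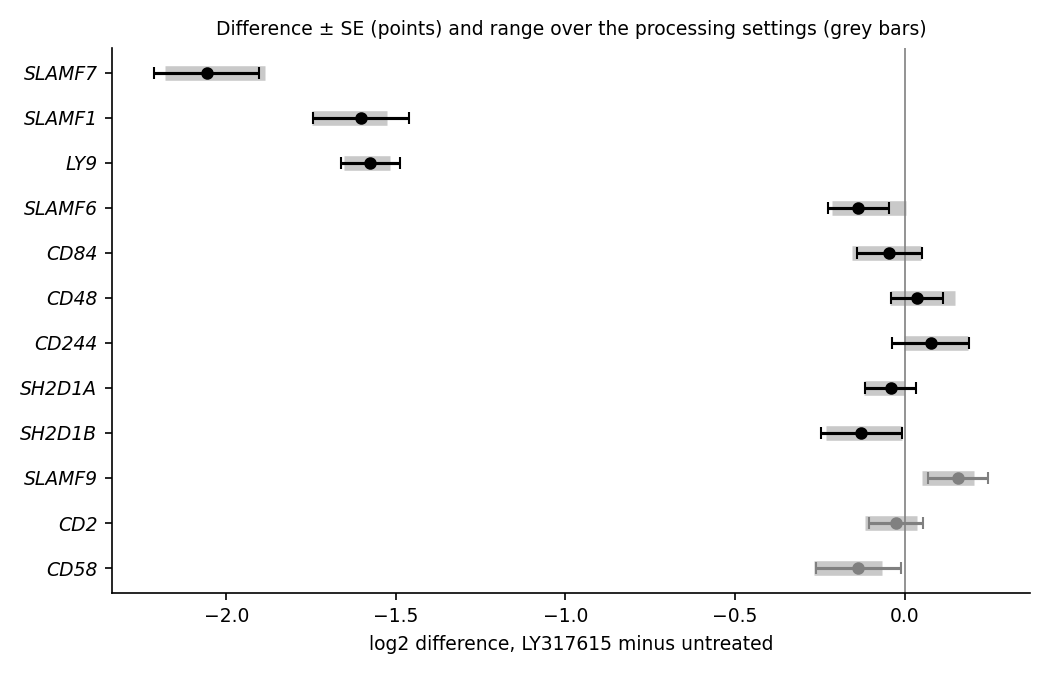
Log2 difference (LY317615 minus untreated) of the 9 measured genes in black and of 3 related receptors in grey, with bars of ± SE. Grey bands give the lowest and highest value over the processing settings tried. SLAMF7, SLAMF1 and LY9 stay below -1.5 in each setting, while the other bands reach from -0.27 to 0.21.

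Against all genes, the 3 lower receptors lay in the far tail. The differences of all 18417 genes ran from -2.63 to 2.63. SLAMF7, SLAMF1 and LY9 held places 8, 23 and 28 from the most negative, while CD48 held place 9572.

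**Figure D3:**
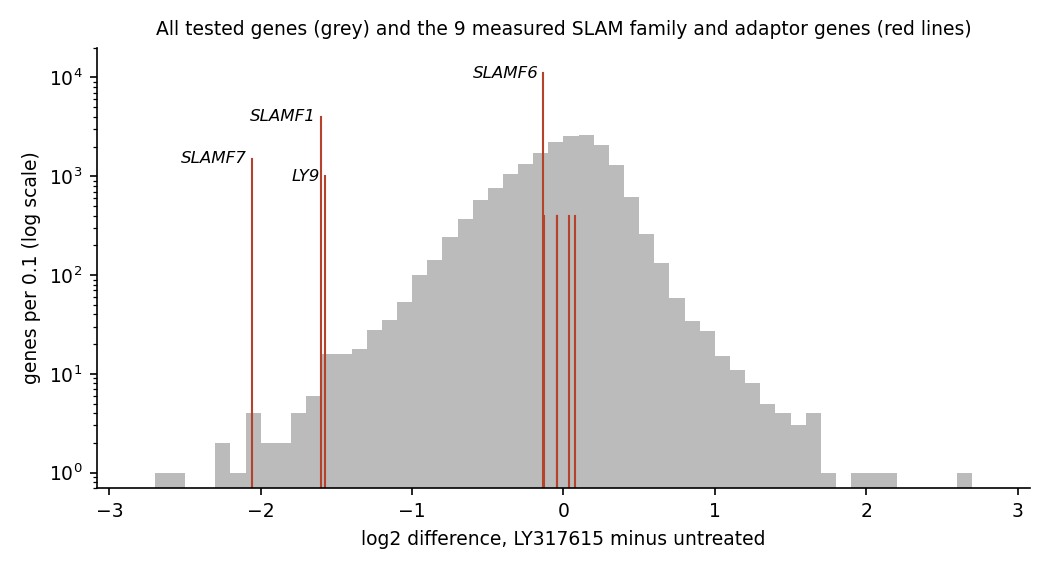
Number of genes per 0.1 of log2 difference (LY317615 minus untreated), on a log axis, over all 18417 genes in grey. Red lines mark the 9 measured SLAM family and adaptor genes, with heights chosen only for legibility. SLAMF7, SLAMF1 and LY9 stand at -2.06, -1.60 and -1.58, and the other 6 lines stand between -0.14 and 0.08.

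The lower receptors were interleaved with a receptor whose groups overlapped. In the RefSeq order of protein-coding genes on chromosome 1 the receptors run SLAMF6, CD84, SLAMF1, CD48, SLAMF7, LY9, CD244, with 1 uncharacterised gene between CD48 and SLAMF7 that was not used here. CD48, at 0.04 ± 0.08 (SE), thus sits between SLAMF1 and SLAMF7. Within each array, SLAMF7 minus CD48 was -4.87, -4.89 and -5.32 in LY317615 cells, against -3.18, -2.91 and -2.70 in untreated cells. SLAMF1 minus CD48 was -6.39, -6.32 and -5.93 in LY317615 cells, against -4.49, -4.39 and -4.83 in untreated cells. LY9 minus CD244, its neighbour on the other side, was 1.87, 2.15 and 2.33 in LY317615 cells, against 3.68, 3.92 and 3.71 in untreated cells. These values restate the differences above within each array and are no separate evidence.

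Genes flanking the receptor block were listed by position and not by value. Of 15 measured neighbours 3 fell and 2 rose (33.3%, against 35.7% of all genes), with a median difference of 0.07. With the array medians set equal the counts were 4 lower and 1 higher, and after cyclic loess 2 lower and 4 higher. The nearest measured genes on each side were the cell-polarity gene VANGL2 and the lectin gene ITLN1. In limma VANGL2 differed by 0.20 ± 0.10 (SE, adjusted p = 0.156) and ITLN1 by 0.02 ± 0.10 (adjusted p = 0.901). They lay at percentiles 29.8 and 7.30 of mean intensity over all genes, where background could hide a difference. PFDN2, a prefoldin chaperone subunit, fell by 0.50 ± 0.08 (adjusted p = 0.0013), and PEX19, which imports peroxisomal membrane proteins, fell by 0.37 ± 0.08 (adjusted p = 0.00772). Both remained past the threshold in each setting tried.

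The other 3 calls were weak. NECTIN4, an adhesion gene, rose by 0.47 ± 0.12 (SE, limma adjusted p = 0.0153), which became 0.0502 without LY317615 replicate 3, 0.0518 without untreated replicate 3 and 0.0521 after cyclic loess, with 0.00756 the smallest in any setting. NIT1, which encodes a nitrilase-like hydrolase, rose by 0.29 ± 0.09 (adjusted p = 0.034). The adjusted p ran from 0.00436 to 0.115 over the settings. It missed the threshold with medians made equal (0.115), without LY317615 replicate 1 or 2 (0.0698 and 0.0953) and without untreated replicate 1, 2 or 3 (0.069, 0.105 and 0.0772). COPA, a vesicle coat gene named after its value was seen, fell by 0.23 ± 0.07 (adjusted p = 0.0347). Over the settings the adjusted p ran from 0.00142 to 0.198. The call was lost after cyclic loess (0.198), with replicate number as a block (0.062), on leaving out LY317615 replicate 2 or 3 (0.095 and 0.0537) and on leaving out untreated replicate 1, 2 or 3 (0.0715, 0.112 and 0.0934). The differences of the neighbours ran from -0.50 to 0.47. Those of the 3 lower receptors were larger, but these were chosen with the contrast known, so the comparison supports nothing.

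**Figure D4:**
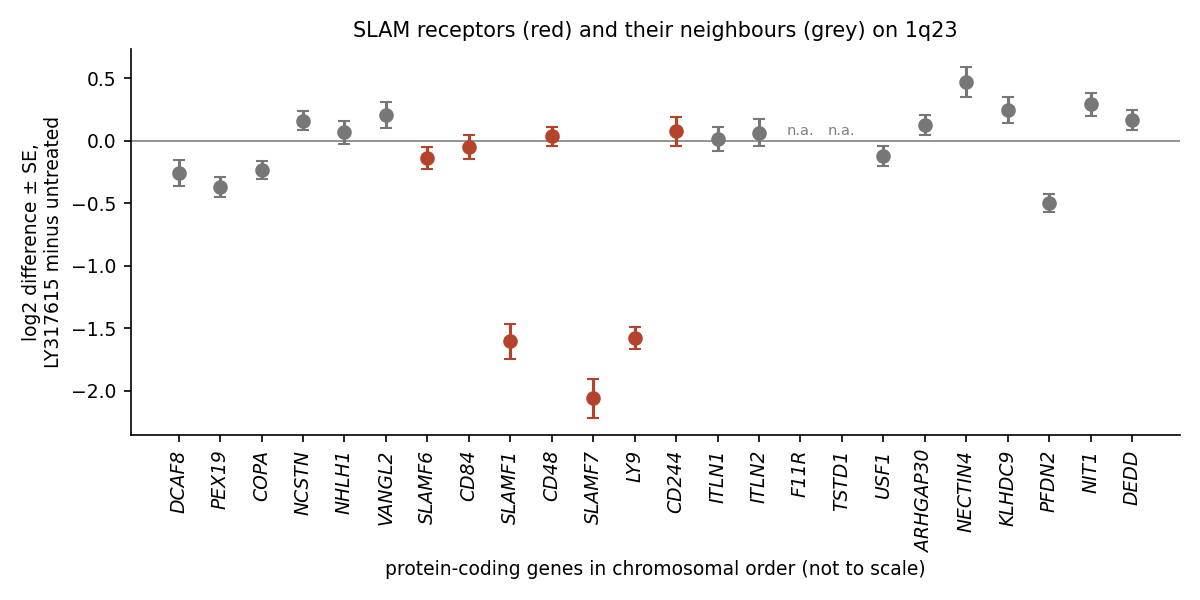
Log2 difference ± SE (LY317615 minus untreated) of SLAM receptors in red and of flanking genes in grey, in chromosomal order and not to scale; n.a. marks 2 genes not analysed here. SLAMF1, SLAMF7 and LY9 lie between -2.06 and -1.58, CD48 between them lies at 0.04, and the flanking genes lie between -0.50 and 0.47.

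Promoter sequence was at hand for 6 of the 9 measured genes, from RefSeq (GRCh38.p14). The 250 bases before each gene's start were searched on both strands. SLAMF7, LY9 and CD84 had no promoter sequence at hand, so SLAMF1 was the only lower receptor searched. The windows of the neighbours SLAMF1 and CD48 are shown because SLAMF1 differed by -1.60 and CD48 by 0.04 on the log2 scale. Capitals mark each match to the core of ETS-factor sites, GGAA, or its reverse complement, read 5′ to 3′ towards the gene. SLAMF1 lies at chr1:160647045-160647294 and CD48 at chr1:160711823-160712072, both on the minus strand.
SLAMF1: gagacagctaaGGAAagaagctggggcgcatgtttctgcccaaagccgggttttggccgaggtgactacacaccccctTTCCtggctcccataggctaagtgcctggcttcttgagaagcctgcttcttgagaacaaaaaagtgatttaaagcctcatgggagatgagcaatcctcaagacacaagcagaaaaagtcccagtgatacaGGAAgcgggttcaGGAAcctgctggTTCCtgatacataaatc
CD48: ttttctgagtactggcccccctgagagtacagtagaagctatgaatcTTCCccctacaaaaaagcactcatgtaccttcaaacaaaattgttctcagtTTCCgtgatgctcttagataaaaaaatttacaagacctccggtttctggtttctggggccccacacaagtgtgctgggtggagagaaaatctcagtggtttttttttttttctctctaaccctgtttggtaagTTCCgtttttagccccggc
SLAMF1 held 5 such matches and CD48 held 3, and 92.7% of all 35116 promoters held at least 1, with a median of 3. The G and C content was 50.0% for SLAMF1 and 43.2% for CD48, against a median of 58.0% over all promoters.

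Other motifs searched were absent from both of these windows, which says only that these letters are not there. They were the AP-1 site TGANTCA, in 6.57% of all promoters, the EBF core CCCNNGGG, in 17.1%, and the STAT site TTCNNNGAA, in 6.57%. The AP-1 site is the classic response element of phorbol esters, which activate protein kinase C. It was found in the promoters of CD244, starting 71 bases before the gene, and of SH2D1B, starting 107 bases before it. SLAMF8, whose expression was not analysed here, also held 1, starting 103 bases before the gene. SLAMF7, LY9 and CD84, without promoter sequence, could not be searched for it. The log2 differences were 0.08 for CD244 and -0.13 for SH2D1B. With these genes at percentiles 14.4 and 6.01 of mean intensity, background could hide a difference. A link between the motif and the differences was not tested. The 27 bases around the matches of these 2 measured genes are shown with the motif in capitals, from chr1:160862942-160862968 for CD244 and chr1:162412227-162412253 for SH2D1B, both on the minus strand of GRCh38.p14.
CD244: actggctttgTGAGTCActgtgaactt
SH2D1B: cctacttctgTGAGTCAcatgtgggcc
CD244 also held 1 EBF core and 1 STAT site and SH2D1B 1 STAT site, whose letters overlap 2 of the ETS cores in SH2D1B. A match is a description of the letters and not a binding site.

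Genes that couple SLAM receptors to the cell changed in both directions. Of 23 measured signalling genes 6 fell and 3 rose (39.1%, against 35.7% of all genes), with a median difference of -0.11. With the array medians set equal the counts were 8 and 2, and after cyclic loess 4 and 4. In the arm that runs from SAP through the kinase FYN, 3 of 11 genes fell and 1 rose (36.4%, against 35.7% of all genes). FYN itself read 8.88, 8.91 and 8.69 in LY317615 cells, against 9.22, 9.18 and 9.20 in untreated cells. It fell by 0.37 ± 0.08 (SE, limma adjusted p = 0.00774), with no overlap between the groups.

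The docking protein gene DOK1 fell by 0.47 ± 0.09 (SE, limma adjusted p = 0.00466), and NFKB1, which encodes a subunit of NF-kB, rose by 0.36 ± 0.08 (adjusted p = 0.00628). FYN, DOK1 and NFKB1 remained past the threshold in each setting tried. The adaptor gene NCK1 fell by 0.25 ± 0.07 (adjusted p = 0.027). The adjusted p ran from 0.00491 to 0.379 over the settings. The call was lost after cyclic loess (0.379), without LY317615 replicate 1 (0.0787) and without untreated replicate 1, 2 or 3 (0.0702, 0.0849 and 0.0718).

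In the EAT-2 arm 2 of 4 measured genes rose and 0 fell (limma, with 0 further genes at an unadjusted p under 0.05), while 14.2% of all genes rose. With 4 genes, nothing is read from the arm's count. LYN, a kinase of the FYN family abundant in B cells, read 8.76, 8.80 and 8.56 in LY317615 cells, against 8.13, 8.07 and 8.07 in untreated cells. It rose by 0.62 ± 0.09 (SE, adjusted p = 0.00085 in limma) and passed in each setting tried. PLCG1, which encodes phospholipase C gamma 1, rose by 0.30 ± 0.08 (adjusted p = 0.0155), a call lost without untreated replicate 2 or 3 (0.0558 and 0.0521) and with medians made equal (0.0677), where the smallest in any setting was 0.00139. PLCG2, the B-cell form, named after its values were seen, had 2 probe sets. The brighter one differed by 0.11 ± 0.08 (adjusted p = 0.268) and the dimmer one by 0.46. Their mean differed by 0.29 (adjusted p = 0.0145), so PLCG2 passed there, as it did for the brighter one when the prior variance followed intensity (0.0474), and its adjusted p reached 0.782 with medians made equal.

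Of 4 phosphatase-arm genes 0 passed in limma (1 at an unadjusted p under 0.05), including PTPN6, which encodes the phosphatase SHP-1, at -0.25 ± 0.09 (SE, adjusted p = 0.0657). PTPN6 passed when the prior variance followed intensity (0.0277), when medians were made equal (0.0229) and without the dimmest genes (0.038), and its adjusted p reached 0.273 in the least favourable setting. Among 4 genes whose proteins bind receptor tails or act with such a binder, 3 fell, while 21.4% of all genes fell; nothing is read from a count over 4 genes. PIK3C3, the lipid kinase VPS34, fell by 0.50 ± 0.08 (adjusted p = 0.00152) and passed in each setting tried. BECN1, its partner beclin 1, fell by 0.35 ± 0.08 (adjusted p = 0.0116), which became 0.0535 after cyclic loess and was otherwise as low as 0.000852. SH3BP2, an adaptor that binds the CD244 tail, fell by 0.33 ± 0.09 (adjusted p = 0.0177), a call lost without LY317615 replicate 2 (0.0501) and without untreated replicate 3 (0.0664), with 0.00558 the smallest in any setting.

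**Figure D5:**
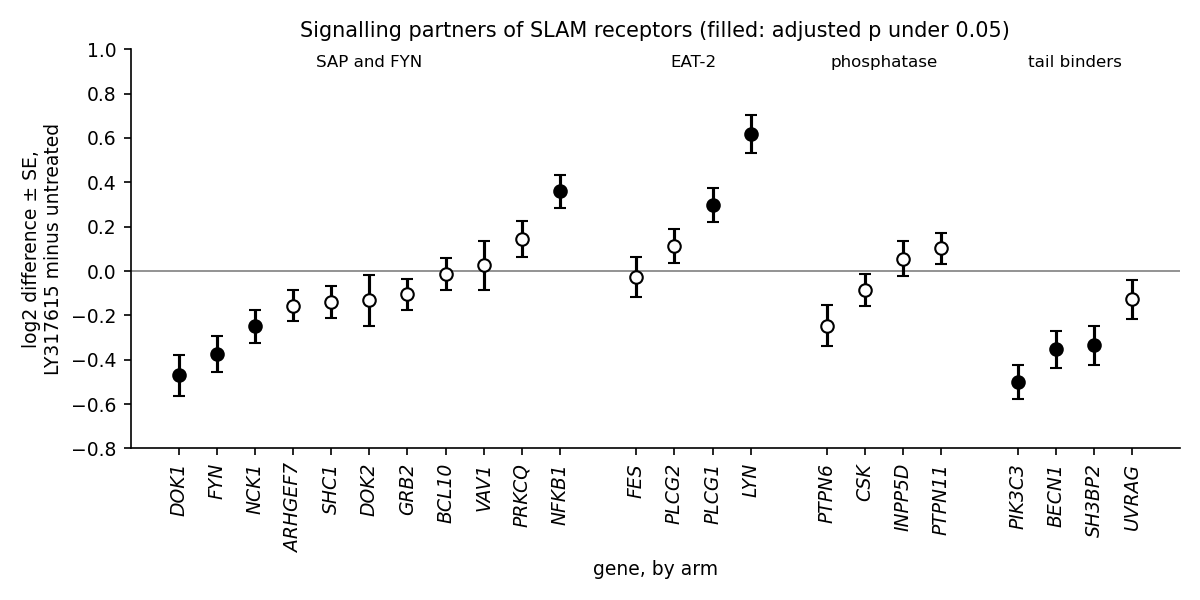
Log2 difference ± SE (LY317615 minus untreated) of 23 genes that couple SLAM receptors to the cell, by arm and ordered by value within it, filled where the limma adjusted p was under 0.05. LYN is highest at 0.62 and PIK3C3 lowest at -0.50.

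Of the 3 nearest relatives outside the 10 genes, 0 passed in limma (0 also at an unadjusted p under 0.05). SLAMF9, a family member with a short tail, read 4.66, 4.61 and 4.70 in LY317615 cells, against 4.57, 4.34 and 4.60 in untreated cells, a difference of 0.16 ± 0.09 (SE, adjusted p = 0.192) although the groups did not overlap. CD2, a T-cell and NK-cell receptor of the same superfamily, differed by -0.02 ± 0.08 (adjusted p = 0.835). CD58, the ligand of CD2, differed by -0.14 ± 0.13 (limma adjusted p = 0.427). SLAMF9 and CD2 lay at percentiles 20.7 and 17.2 of mean intensity over all genes, where background could hide a difference. Among plasma-cell markers, set beside SLAMF7 because it is used as one, TNFRSF17, the BCMA receptor, fell by 1.49 ± 0.15 (limma adjusted p = 0.000157) and XBP1, a secretory-cell factor, fell by 0.34 ± 0.07 (adjusted p = 0.00608), while SDC1 (CD138) and PRDM1 differed by 0.23 ± 0.11 and 0.30 ± 0.14 and did not pass.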

How the data were processed

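Total RNA of RL cells was hybridised to Affymetrix Gene 1.0 ST arrays, 3 with LY317615 and 3 untreated, grouped by their labels. The authors deposited linear intensities of 33297 probe sets. GCOS 1.4, RMA and Affymetrix Expression Console are named, per the submitters' processing notes, in no stated order. RMA returns log2 values, so a step back to the linear scale is implied and not stated. No genome build is named.

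Log2 was taken with no added constant. Of the probe sets, 19460 had 1 gene symbol, 1754 several and 12083 none. The brightest single-symbol probe set stood for each of 18417 genes. Genes were tested two-sided in R 4.3.3 by limma 3.58.1 (lmFit, then eBayes with no trend, Benjamini-Hochberg over all genes, threshold 0.05), and the code was tested on simulated data. Further steps ran in Python 3.11.15 with numpy 2.4.6, pandas 2.3.3 and, for plots, matplotlib 3.10.9. Precision is limited by the number of arrays.

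The members and lists were chosen with earlier results of these data known. Named were all members and relatives, up to 4 passing genes per signalling arm (or the largest change), the nearest neighbours and up to 4 passing ones. Some listed genes, RASA1, F11R and TSTD1 among them, were not analysed here. The alternatives were the replicate block, each array left out, an intensity trend, array weights, equal medians, cyclic loess, no dimmest 30% of genes, mean probe sets and an adjusted p of 0.01.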

Additional observations from a re-analysis of the deposited data

How the results depend on the processing

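As a description of members chosen on this contrast, and not as support, the differences over the chosen fit and 13 alternatives are given. SLAMF7 ranged from -2.18 to -1.89, SLAMF1 from -1.75 to -1.53 and LY9 from -1.65 to -1.52. The replicate block, the intensity trend, leaving out dim genes and averaging probe sets cannot move a member's difference. Those settings add nothing to the ranges. The signs of CD48, CD244, CD84 and SLAMF6 changed between settings. With probe sets of 1 gene averaged, 10 signalling genes passed, PLCG2 being added. At an adjusted p of 0.01 the counts fell to 3586 of all genes, 5 signalling genes and 2 neighbours. Leaving out each array in turn gave 2 to 4 neighbours past the threshold. Without the dimmest 30% of genes CD244, SH2D1A and SH2D1B were not tested. Deviations of same-numbered arrays of the 2 groups had correlations of -0.02, 0.09 and 0.07, and 4 of 6 arrays matched their own number best. These values do not settle whether the numbers pair the samples. With the replicate number as a block 6548 genes passed, with 3 members, 9 signalling genes and 4 neighbours among them. No detection calls were used, so changes of dim genes may be hidden by background.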
